A study of Mus musculus with 4 samples.

Results

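The genes described here are 80 mouse genes, other than the best known genes of the 2-cell-like state, whose RNA stood in the same order across the 4 libraries of this series as the RNA of MERVL, the endogenous retrovirus that was targeted. They were chosen by their own values. A gene was taken when its level was at least 2-fold higher in random shRNA replicate 1 than in random shRNA replicate 2, higher in random shRNA replicate 2 than in MERVL shRNA replicate 1, at least 1.4-fold higher in MERVL shRNA replicate 1 than in MERVL shRNA replicate 2, and at least 3 CPM in random shRNA replicate 1. CPM is a gene's estimated count scaled to a library total of 1000000, with no correction for gene length, so levels are compared between libraries and not between genes. Of 12193 genes at the minimum level, among 43496 in the table, 92 (0.755%) met these conditions. The rule also leaves out symbols that start with Zscan4, Usp17l, Tcstv or Pramel and 7 further genes of that state. This removed 12 of the 92, namely 5 Zscan4 genes, 2 Usp17l genes, Zfp352, Tmem92, Arg2, Ubtfl1 and BB287469, and left the 80. Since the choice used all 4 libraries, every level, ratio and fold change of these genes is a description, and no independent library was at hand in which to test them.

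The libraries were made from E14 cells, a mouse embryonic stem cell line labelled as strain 12910la with a wild-type genotype and grown on gelatin with 15% serum and LIF at 10 ng/ml. In the MERVL shRNA group (2 libraries) a pSuper puro plasmid carried an shRNA against MERVL, which the labels spell MuERVL, and in the random shRNA group (2 libraries) the shRNA was a random one. Both groups got 1000 ng of plasmid and, from 24 h later, 1 µg/ml puromycin for 4 days. No clone is named in the labels, nor is it said that same-group libraries came from separate cultures, so p-values here reflect how far these particular samples differ, and that may be technical spread.

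MERVL is transcribed at the 2-cell stage of the mouse embryo, when the zygotic genome is first used, and in a few cells of an embryonic stem cell culture that enter a transient 2-cell-like state. Its long terminal repeat, MT2_Mm, can serve as a promoter, and some host genes start their transcripts inside retrovirus-derived repeats. Many genes of this state belong to multicopy families that lie in tandem. In RNA from bulk cultures, fewer cells in such a state and less RNA per cell cannot be told apart.

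Totals were 16067854 and 14570056 estimated counts in MERVL shRNA replicates 1 and 2, and 15496921 and 11628887 in random shRNA replicates 1 and 2. The sum of the 2277 listed MERVL copies came to 1152 and 555.1 CPM with MERVL shRNA, against 4716 and 1471 CPM with random shRNA. Random shRNA replicate 1 thus stood apart, 3.21-fold above the other random shRNA library, while its partner exceeded MERVL shRNA replicate 1 by 1.28-fold. All 12 listed embryonic stem cell markers were at or above 3 CPM in random shRNA replicate 1, with summed levels of 9572 and 10032 CPM with MERVL shRNA and 8187 and 9243 CPM with random shRNA. None of them met the rule.

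The transcript starts of 4 of the genes carry a shared sequence, and it is shown because these genes lie at separate loci and in no common family. In the GENCODE M21 transcripts of Gm8994, Gm20767, Ccser1 and Ctf2, the first bases aligned pairwise over 96 to 111 nt at 84.3% to 94.4% identity. In the 30-base windows printed here, 5′ to 3′ on the transcript, capitals mark the 28 bases identical in all 4 genes.
Gm8994: GTGAGACTGAGTAACgaCTAGATCCTTGGA
Gm20767: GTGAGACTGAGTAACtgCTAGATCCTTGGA
Ccser1: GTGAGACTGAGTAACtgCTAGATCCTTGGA
Ctf2: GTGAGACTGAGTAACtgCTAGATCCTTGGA
The windows begin at transcript base 27 in Gm8994, 29 in Gm20767, 18 in Ccser1 and 41 in Ctf2. On GRCm38, the assembly also called mm10, Gm8994 lies on the plus strand of chromosome 6 from 136327539 to 136329983 and Gm20767 on the plus strand of chromosome 13 from 120140246 to 120155335. Ccser1 spans 61180324 to 62382865 on the plus strand of chromosome 6, and Ctf2 spans 127718106 to 127732166 on the minus strand of chromosome 7. No repeat annotation was used here, so the shared start was not matched to a named repeat.

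The RefSeq promoter window of Gm8994, whose RefSeq symbol is Eif4a3l1, shows this start in its genomic setting. It covers chr6:136327289-136327588 of GRCm38.p6 on the plus strand, that is 250 bases before the start and 50 after it. The capitals mark the 15-base run, identical in the 4 transcripts, that opens the windows above.
Gm8994 promoter: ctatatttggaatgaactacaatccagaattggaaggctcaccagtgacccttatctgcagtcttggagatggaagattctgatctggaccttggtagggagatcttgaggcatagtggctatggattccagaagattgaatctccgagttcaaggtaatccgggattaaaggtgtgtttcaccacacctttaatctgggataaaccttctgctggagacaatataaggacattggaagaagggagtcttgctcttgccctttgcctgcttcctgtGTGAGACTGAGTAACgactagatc
RefSeq windows were given for 27 of the 80 genes. Motifs were searched on both strands and only in the 250 bases before the start. There the letters TATAAA were in the windows of 1 of these 27 genes (3.70%), Ctf2, against 14.3% of 27025 genes. CCAAT was in 11 of the 27 (40.7%, against 37.5% of all), Gm8994 among them, and GGGCGG in 8 (29.6%, against 35.4% of all), including Ccser1, Ctf2, Mecom and Zfp560. None of these motifs contains another, and a match is a description of the letters only.

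All 4 genes with the shared start had less RNA with MERVL shRNA than with random shRNA in every library, as the rule requires. Gm8994, named in RefSeq after the RNA helicase of the exon junction complex, had 20.6 and 12.0 CPM with MERVL shRNA and 116.2 and 33.8 CPM with random shRNA, replicate 1 before replicate 2 here and in what follows. Ccser1, a coiled-coil serine-rich protein gene, had 4.98 and 3.09 CPM with MERVL shRNA and 32.7 and 7.48 CPM with random shRNA. In both genes random shRNA replicate 1 lay far above the other 3 libraries. Gm20767 had 18.4 and 10.7 CPM with MERVL shRNA and 89.2 and 25.1 CPM with random shRNA. Ctf2, a cytokine of the cardiotrophin type, stood much lower in counts, with 0.622 and 0.343 CPM with MERVL shRNA and 3.74 and 1.03 CPM with random shRNA. Ctf2 overlaps 87 bp of Ctf1 on the opposite strand, and it is not stated whether the authors' counting used strand, so their reads may not be fully separated. Ctf1 had 2.74 and 2.54 CPM with MERVL shRNA and 3.87 and 4.47 CPM with random shRNA.

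Related starts also occur in genes that did not vary like MERVL. An alignment of the 4 starts to all annotated transcripts gave hits within the first 300 bases of 223 genes. Counted apart from the alignment, over all annotated genes, 139 hold the 15-base run exactly within the first 300 bases. A hit can thus be a mere resemblance to the start. Of the 223 genes, 58 have a row in the table (the other 165 were not analysed here) and 25 were at or above 3 CPM in random shRNA replicate 1. The hits in these 25 were 76.8% to 100% identical and began as far as base 196 into the transcript. Of these 25 genes, 5 met the rule (20%), the 4 genes above and Ubtfl1, a 2-cell gene left out by symbol. The 4 starts were taken from genes that meet the rule, so nothing is read from that share. The 21 genes outside the 80 had a median ratio of random shRNA replicate 1 to replicate 2 of 1.16, against 1.01 for all genes at the minimum. In 10 of the 21 (47.6%) both MERVL shRNA libraries lay below both random shRNA libraries, against 28.2% of all genes at the minimum. Ubtfl1, which met the rule, is among the 21 and among the 10, so its order was fixed in advance. Wtap, a subunit of the RNA methylation complex, was level at 150.2 and 156.8 CPM with MERVL shRNA and 140.8 and 140.9 CPM with random shRNA. Naalad2, a peptidase gene, had 0.871 and 0.0686 CPM with MERVL shRNA and 3.29 and 0.774 CPM with random shRNA, a reversed order of random shRNA replicate 2 and MERVL shRNA replicate 1, so that the gene missed the rule. Both genes were chosen after their values were seen.

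**Figure D1:**
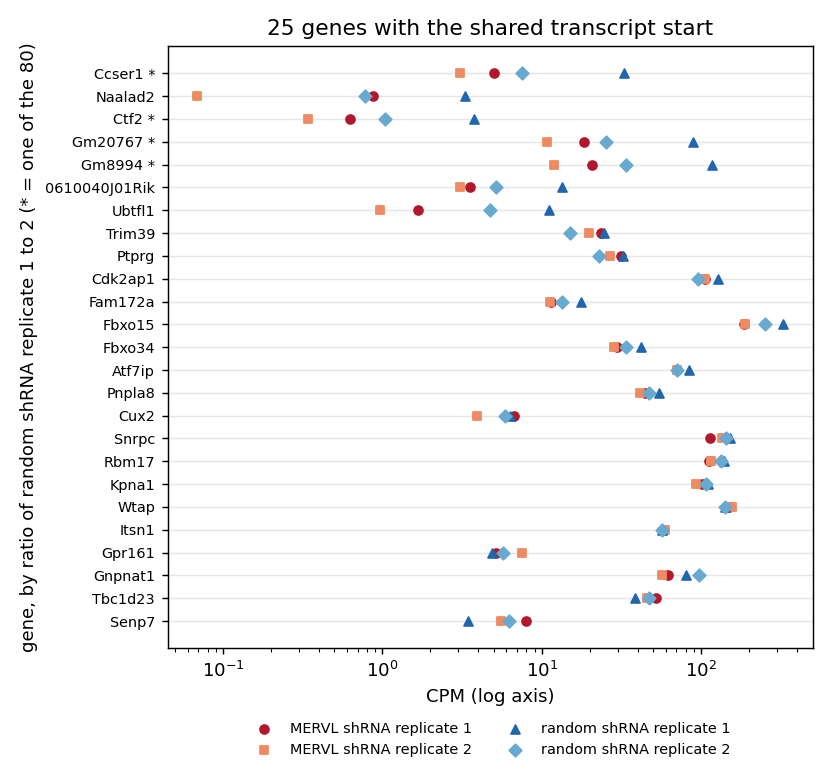
CPM (log axis) of the 25 genes at or above 3 CPM in random shRNA replicate 1 whose annotated transcripts align with the shared start, ordered by the ratio of random shRNA replicate 1 to replicate 2, with asterisks on the genes among the 80. Each point is a library, and the genes with the widest spread, such as Ccser1 and Naalad2, are at the top while genes such as Wtap have all 4 points close together.

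Summed over the 80 genes, RNA came to 490.9 and 289.2 CPM with MERVL shRNA and to 2375 and 715.0 CPM with random shRNA. The ratio of random shRNA replicate 1 to replicate 2 had a median of 3.20 over the genes (2.01 to 6.59), close to the 3.21 of MERVL, and that of MERVL shRNA replicate 1 to replicate 2 a median of 1.72, below the 2.08 of MERVL. Random shRNA replicate 2 over MERVL shRNA replicate 1 had a median of 1.38 (1.03 to 3.99), so at the low end these 2 libraries of different groups nearly coincided. Over all 12193 genes at the minimum the medians of these ratios were 1.01, 1.01 and 1.02 in the same order. The 2-fold gap in the random shRNA pair, taken alone, was met by 340 genes (2.79%).

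**Figure D2:**
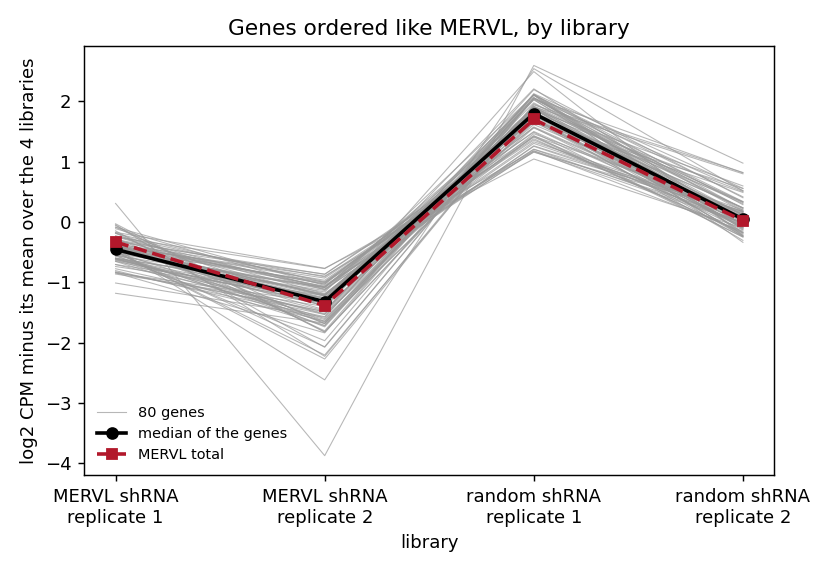
Log2 CPM of each of the 80 genes in the 4 libraries, after subtraction of its mean over the libraries (thin grey lines), with the median gene in black and the MERVL total as a dashed red line. The median and the MERVL total run close together. Both are highest in random shRNA replicate 1 and lowest in MERVL shRNA replicate 2, an order that the rule sets for every gene. The line that drops furthest is Gm4981, which rests on 0.5 of an estimated count in MERVL shRNA replicate 2.

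**Figure D3:**
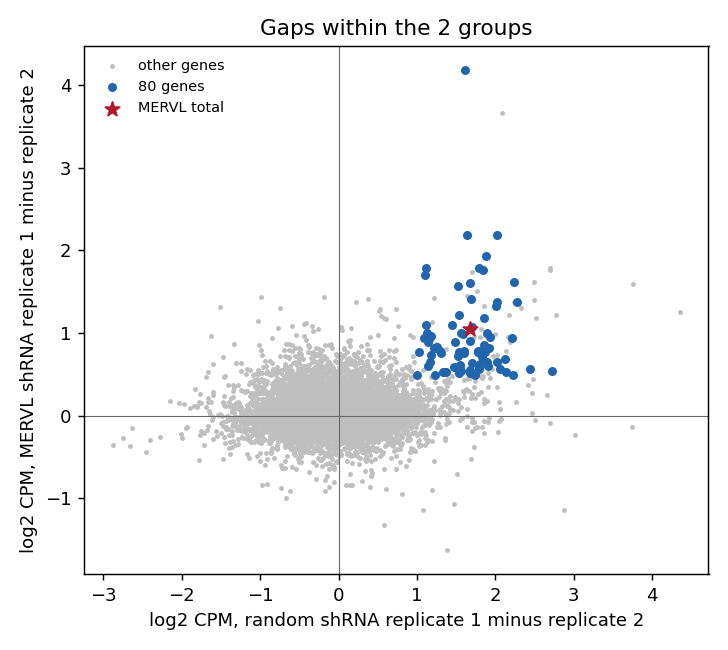
Difference in log2 CPM between the random shRNA libraries (x axis) and between the MERVL shRNA libraries (y axis) for the genes at or above 3 CPM in random shRNA replicate 1, with the 80 genes in blue, the other genes in grey and the MERVL total as a red star. The 80 genes sit at upper right by construction, around the MERVL total, while most of the 12193 genes lie around 0 on both axes.

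Likeness to MERVL was measured as the root mean square difference of the 4 centred log2 CPM values from those of the MERVL total. It had a median of 0.26 over the 80 genes and ran from 0.09 for Gm29361 to 1.44 for Gm4981. Gm29361, an antisense transcript, had 22.7 and 12.2 CPM in the MERVL shRNA libraries and 93.0 and 33.1 CPM in the random shRNA libraries. It lies within Rbm25 on the opposite strand, a gene not analysed here, so reads of the pair may not be separated. After it came Gm8300, Cpb2, Gm20767, an identifier without annotation, Gm8332, Gm5039, another such identifier, Gm4027 and Gm5662, of which 5 belong to the EIF1A-like family described next. Cpb2, a carboxypeptidase that restrains fibrinolysis, was the member of this group with a named function, at 1.12 and 0.480 CPM with MERVL shRNA and 3.74 and 1.29 CPM with random shRNA. Gm4981, the least like MERVL, rests on 0.5 of an estimated count in MERVL shRNA replicate 2.

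Families of genes with similar transcripts held 24 of the 80 genes and 51.6% of their summed CPM in random shRNA replicate 1. Families were formed from transcripts that aligned over at least 50% of the shorter one. The largest had 8 genes on chromosome 12 that resemble Eif1a, the gene of a translation initiation factor: Gm5662, Gm8300, Gm8332, Gm5039, Gm4027, Gm2035, Gm2056 and Gm2075. Their transcripts were 91.3% to 99.5% identical, so the split of reads among them is uncertain and their sum is given. Summed, they stood at 198.7 and 114.8 CPM with MERVL shRNA and at 982.0 and 275.8 CPM with random shRNA. Gm5662 alone had 81.1 and 47.1 CPM with MERVL shRNA and 429.0 and 119.1 CPM with random shRNA, means of 64.1 ± 24.0 and 274.1 ± 219.1 CPM (SD, n = 2 each). The SD of the random shRNA pair is far wider than that of the MERVL shRNA pair. Gm7104, a processed pseudogene between Gm5662 and Gm5039 that is outside the family by that measure, had 3.02 and 1.96 CPM with MERVL shRNA and 13.8 and 3.96 CPM with random shRNA. With it, Gm29361 and Dlk1, chromosome 12 held 11 of the 80 genes (13.75%, against 3.53% of genes at the minimum).

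The next family had 7 genes of the PRAME type, a group of leucine-rich repeat proteins expressed in germ cells and early embryos: Gm12794, Pramef25, Gm12800, BC080695, Gm6351, Gm7982 and Gm7942. RefSeq calls Gm12794 Pramel19 and Pramef25 Pramel16, names that would have been left out with the other Pramel genes. Transcripts of this family were 63.9% to 100% identical where they aligned. Their sum was 23.8 and 14.1 CPM in the MERVL shRNA libraries and 94.9 and 34.0 CPM in the random shRNA libraries. Gm12794 had 5.28 and 2.83 CPM with MERVL shRNA and 30.3 and 9.52 CPM with random shRNA, a wider spread than Pramef25, at 7.60 and 5.42 CPM with MERVL shRNA and 22.5 and 11.2 CPM with random shRNA. Pramef25 was the gene nearest to the limits of both gap conditions.

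Smaller families lay partly in tandem. Gm8711, Gm4312, Gm4308 and Gm4302 span 41725 bp of chromosome 10, from 100340836 to 100382560, and were 94.4% to 100% identical. As a sum they had 3.65 and 2.25 CPM with MERVL shRNA and 24.3 and 8.59 CPM with random shRNA, and here random shRNA replicate 2 exceeded MERVL shRNA replicate 1 by 2.35-fold, against 1.28-fold for MERVL. Tdpoz3, Tdpoz4 and Gm4778 (Spopfm1 in RefSeq) encode proteins with a TRAF-type and a POZ domain, the arrangement of Spop, an adaptor of a cullin ubiquitin ligase. Tdpoz3 and Tdpoz4 lie within 30720 bp of chromosome 3, from 93796398 to 93827117. Tdpoz3 had 3.49 and 2.02 CPM with MERVL shRNA and 12.9 and 5.25 CPM with random shRNA. Tdpoz4, whose estimated counts were whole in every library, had 0.871 and 0.618 CPM with MERVL shRNA and 7.23 and 1.55 CPM with random shRNA. Gm4778 had the widest random shRNA gap of all 80 genes, 6.59-fold, with 0.996 and 0.686 CPM with MERVL shRNA and 10.2 and 1.55 CPM with random shRNA. Tdpoz1 and Tdpoz2, their relatives, were below 3 CPM in each library. Last, Gm20767 and B020031M17Rik on chromosome 13 were 88.9% identical and summed to 19.8 and 11.6 CPM with MERVL shRNA and 95.1 and 26.7 CPM with random shRNA.

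Genes outside families numbered 56, with a median random shRNA gap of 3.05-fold against 3.46-fold for genes in families. Estimated counts were whole in every library for 23 of the 80, as when no read had to be shared with another locus. Those 23 had median gaps of 3.11-fold in the random shRNA pair and 1.81-fold in the MERVL shRNA pair. The 57 with a non-whole count had 3.20-fold and 1.71-fold. The rule set a lower limit on both gaps in all of these genes, so nothing is read from these medians about shared reads. The share of genes with a non-whole count was 71.25% of the 80 and 73.3% of all genes at the minimum. By GENCODE type, 53 of the 80 were protein coding (66.25%, against 91.8% of genes at the minimum), 11 were pseudogenes, 2 were antisense, 2 were lincRNAs, and 1 was the telomerase RNA Terc. The other 11 had no entry in the annotation used here.

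A symbol that is not a placeholder was carried by 28 genes. Among 12 secreted or cell surface proteins, summed levels were 20.3 and 10.7 CPM with MERVL shRNA and 78.8 and 27.6 CPM with random shRNA. Spesp1, a protein of the sperm equatorial segment, had 3.24 and 1.51 CPM with MERVL shRNA and 15.7 and 5.76 CPM with random shRNA. Pdgfrl, named for its likeness to a platelet-derived growth factor receptor, had 5.23 and 3.64 CPM with MERVL shRNA and 14.1 and 5.59 CPM with random shRNA. For Pdgfrl, random shRNA replicate 2 and MERVL shRNA replicate 1 were close, 1.07-fold apart, and the pattern rested mainly on random shRNA replicate 1. Antxr1, an anthrax toxin receptor that binds extracellular matrix, had 2.74 and 1.78 CPM with MERVL shRNA and 8.71 and 2.97 CPM with random shRNA. Msln, the surface protein mesothelin, had 1.12 and 0.343 CPM with MERVL shRNA and 5.94 and 2.75 CPM with random shRNA, which set both random shRNA libraries well above both MERVL shRNA libraries.

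Receptors and ligands known from the nervous system and from immune cells rested on few counts. The netrin receptor Dcc had 0.747 and 0.377 CPM with MERVL shRNA and 4.39 and 1.46 CPM with random shRNA. Ccl3, a chemokine, rested on 3 estimated counts in MERVL shRNA replicate 2, at 0.934 and 0.206 CPM with MERVL shRNA and 3.74 and 1.204 CPM with random shRNA. Counts under 10 in that library held for 28 of the 80 genes, and for those the order of the MERVL shRNA libraries is weakly measured. Cntnap3, a contactin-associated cell adhesion protein, and Calhm3, a channel of the calcium homeostasis modulator family, were among them, at 1.06 and 0.549 CPM (Cntnap3) and 1.31 and 0.343 CPM (Calhm3) with MERVL shRNA. In the random shRNA libraries Cntnap3 had 4.26 and 1.12 CPM and Calhm3 had 6.001 and 1.63 CPM. Dlk1, an imprinted ligand related to Notch ligands, had the group means nearest each other in ratio, at 1.56 and 1.03 CPM with MERVL shRNA and 3.61 and 1.63 CPM with random shRNA.

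Genes of intracellular signalling numbered 4. Arhgef26, a guanine nucleotide exchange factor, had 14.2 and 9.03 CPM with MERVL shRNA and 60.5 and 14.9 CPM with random shRNA, so that 3 libraries lay within 9.03 to 14.9 CPM and random shRNA replicate 1 stood alone. Inpp4b, a phosphoinositide phosphatase, had 1.12 and 0.755 CPM with MERVL shRNA and 5.74 and 1.38 CPM with random shRNA. Stk32c, a protein kinase gene, had 2.77 and 1.44 CPM with MERVL shRNA and 7.87 and 3.70 CPM with random shRNA. Its neighbour Lrrc27, which overlaps it by 320 bp on the opposite strand, did not share the pattern, at 3.11 and 2.61 CPM with MERVL shRNA and 2.00 and 4.73 CPM with random shRNA. Rgs16, which shortens G protein signalling, had 1.31 and 0.652 CPM with MERVL shRNA and 3.19 and 1.46 CPM with random shRNA.

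Of 3 genes of DNA-binding proteins, Mecom, a zinc finger factor of blood stem cells, had the widest random shRNA gap, 4.84-fold. It had 3.21 and 1.24 CPM with MERVL shRNA and 16.6 and 3.44 CPM with random shRNA. Zfp560, a zinc finger gene, had 7.44 and 4.96 CPM with MERVL shRNA and 25.8 and 9.29 CPM with random shRNA. Spz1, a leucine zipper factor of the testis, had 1.18 and 0.343 CPM with MERVL shRNA and 6.36 and 2.92 CPM with random shRNA. Groups were further apart for Spz1, where random shRNA replicate 2 exceeded MERVL shRNA replicate 1 by 2.47-fold, than for Mecom, where that ratio was 1.07. Terc, the RNA template of telomerase, had 1.87 and 0.549 CPM with MERVL shRNA and 7.10 and 1.98 CPM with random shRNA. Terc, like Mecom, was nearly level between MERVL shRNA replicate 1 and random shRNA replicate 2. The MERVL shRNA gap of Terc, 3.40-fold, was wider than that of MERVL. That gap rests on 8 estimated counts of Terc in MERVL shRNA replicate 2, so it is weakly measured. Cyp2b23, a cytochrome P450, had 6.16 and 3.16 CPM with MERVL shRNA and 14.6 and 6.45 CPM with random shRNA. Nat8f2, of an acetyltransferase family, had 2.16 and 1.27 CPM with MERVL shRNA and 6.17 and 3.03 CPM with random shRNA. Fam124a had 8.09 and 5.22 CPM with MERVL shRNA and 31.6 and 9.72 CPM with random shRNA. In these 3 genes the MERVL shRNA gap was narrower than for Terc, and random shRNA replicate 1 stood above the other 3 libraries. Trim43a, a tripartite motif gene, had 1.78 and 1.24 CPM with MERVL shRNA and 6.97 and 2.41 CPM with random shRNA.

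**Figure D4:**
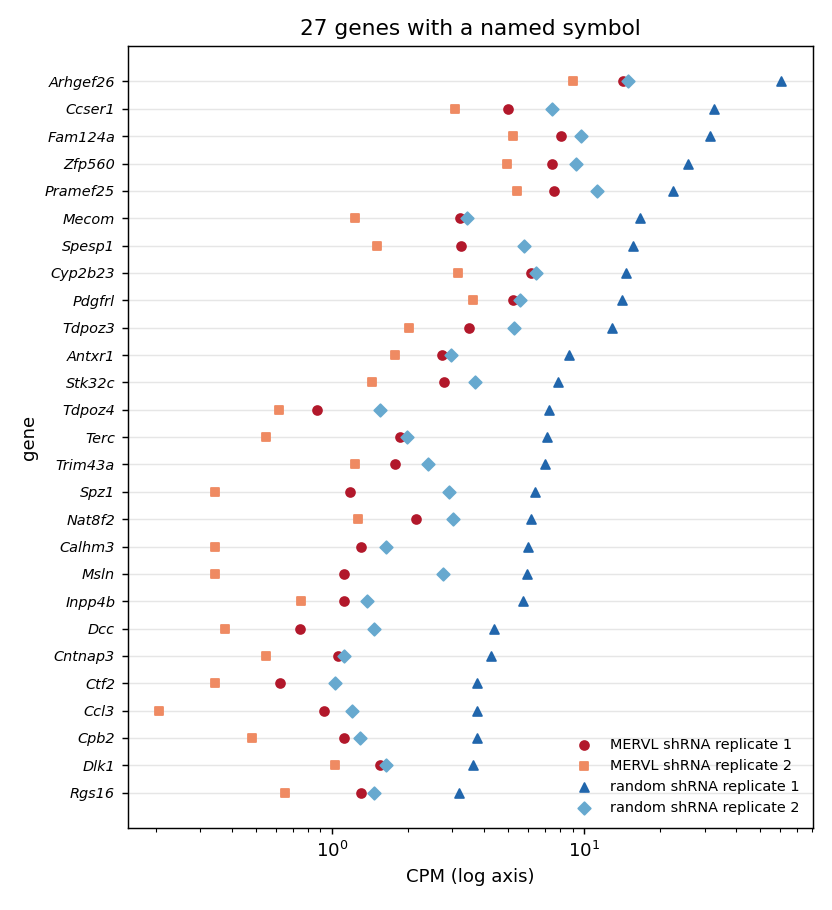
CPM (log axis) of 27 of the 28 genes with a named symbol in the 4 libraries, ordered by the level in random shRNA replicate 1. In each gene the random shRNA replicate 1 triangle is furthest right and the MERVL shRNA replicate 2 square furthest left, as the rule sets, while MERVL shRNA replicate 1 and random shRNA replicate 2 nearly overlap in genes such as Arhgef26, Mecom and Dlk1.

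Members also shared positions. Of the 80, 19 lay in 7 groups of neighbours whose starts were within 100 kb of the next. The like share of all genes at the minimum was not computed, so nothing is read from this count. Several of these groups hold genes of the same family or genes that overlap. Gm29125, a lincRNA, and Gm6189, a processed pseudogene, overlap by 2082 bp on opposite strands of chromosome 1, and their levels were alike in every library. Gm29125 had 2.74 and 1.44 CPM with MERVL shRNA and 13.1 and 5.85 CPM with random shRNA, and Gm6189 had 2.49 and 1.17 CPM with MERVL shRNA and 11.8 and 5.42 CPM with random shRNA. Without strand the reads of such a pair cannot be told apart. Gm5837 and Gm16332, both pseudogenes of chromosome 1 on the minus strand, overlap by 1369 bp.

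Near the limits of the rule, values ran on without a break. Pramef25 (2.01), Nat8f2 (2.03) and Stk32c (2.13) were just inside the random shRNA gap, with Dnah7c (1.95), Mageb4 (1.94) and Gm6489 (1.92) just outside it. For random shRNA replicate 2 over MERVL shRNA replicate 1, AC133095.2 (1.03), Gm13228 (1.04) and AC133103.5 (1.04) were inside, and Gm21542 (0.998), the 2-cell gene Lmx1a (0.995) and Gm13694 (0.979) outside. In the MERVL shRNA gap, Pramef25 (1.401), Tdpoz4 (1.41) and Gm4308 (1.41) were inside, and Gm2016 (1.39), AF067061 (1.37) and an identifier without annotation (1.37) outside. By level, Gm4981 (3.04 CPM), AC133103.5 (3.15 CPM) and Rgs16 (3.19 CPM) were inside and Mrgprx2 (2.71 CPM), AW822073 (2.64 CPM) and Echdc3 (2.55 CPM) outside.

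A list of genes known from the 2-cell-like state, which was put together with earlier results of these data known, had 47 genes in the table and 41 at the minimum level. Of these, 23 met the rule, and 11 of the 23 are among the 80: Gm5662, Gm8300, Gm4027, Gm2035, Gm2056, Gm8994, Gm20767, Gm12794, Tdpoz3, Tdpoz4 and Spz1. A 2-fold gap in the random shRNA pair was met by 37 of the 41, against 2.79% of all genes at the minimum. In 38 of the 41 both MERVL shRNA libraries lay below both random shRNA libraries, against 28.2% of all genes at the minimum. The 23 that met the rule have both traits by the rule, so nothing is read from these counts. None of the other 13 lists had a gene that met the rule. They covered embryonic stem cell, trophoblast, primitive endoderm, fibroblast, neural, blood and muscle markers, p53 targets and interferon genes. They also covered MERVL regulators (repressors, with Dppa2 and Dppa4), lysosome, germline and histone genes. But these lists held 116 genes at the minimum, of which 0.755% would be fewer than 1 gene. Fibroblast markers summed to 653.9 and 636.5 CPM with MERVL shRNA and 724.3 and 720.8 CPM with random shRNA, with 4 of 10 at 0 in every library, and neural markers to 125.001 and 139.6 CPM with MERVL shRNA and 181.3 and 114.1 CPM with random shRNA, with 2 of 12 at 0. Germline genes summed to 327.2 and 302.6 CPM with MERVL shRNA and 657.2 and 469.8 CPM with random shRNA. The germline sum had the same order of libraries as MERVL with narrower gaps within each group. So had the sums of fibroblast markers and of p53 targets (1677 and 1643 CPM with MERVL shRNA, 2066 and 1917 CPM with random shRNA). The fibroblast sum was nearly level in the random shRNA pair. None of the fibroblast markers at the minimum, Thy1, Fn1 and Vim, had that order by itself. Fn1, most of that sum, had 486.1 and 462.2 CPM with MERVL shRNA and 464.0 and 478.0 CPM with random shRNA. The other 2 sums lean on single genes. Dazl, a germline gene, had 88.2 and 63.2 CPM with MERVL shRNA and 218.9 and 161.2 CPM with random shRNA. Ccng1, a p53 target, had 319.0 and 282.4 CPM with MERVL shRNA and 335.4 and 335.7 CPM with random shRNA. Each fell between the MERVL shRNA libraries by at least as much as the whole sum of its list. The order of these sums is thus not read as a trait of the lists. The part of these lists in the levels of the 80 genes was not tested.

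The second table the authors deposited, of normalized scores, gave another picture of the random shRNA pair. In scores, random shRNA replicate 1 was below replicate 2 for all 80 genes, against 48.6% of 12191 genes at the minimum, with a median ratio of 0.871 (0.769 to 0.941) where CPM gave 3.20. MERVL itself had summed scores of 17072 and 7819 with MERVL shRNA and 31918 and 36524 with random shRNA, a ratio of 0.874 between the random shRNA libraries. Gm5662 had scores of 1260 and 719 with MERVL shRNA and 2839 and 3300 with random shRNA. Mecom had scores of 51 and 19 with MERVL shRNA and 94 and 108 with random shRNA. Both MERVL shRNA libraries were below both random shRNA libraries for all 80 genes in scores too, against 39.7% of genes. The rule set this order in CPM and the scores come from the same libraries, so nothing is read from that count. The group ratio (MERVL shRNA over random shRNA) had a median of 0.346 in scores and 0.243 in CPM. The sources used here do not say how the scores were calculated.

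**Figure D5:**
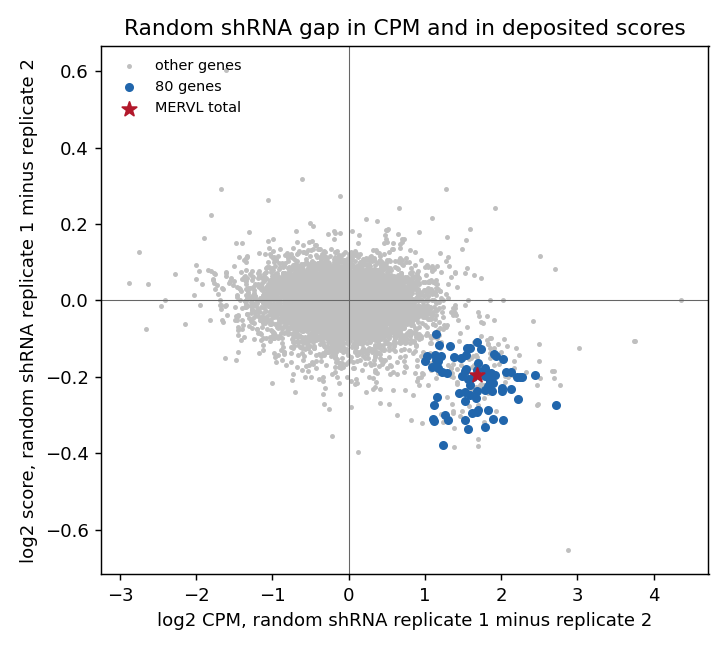
Difference between random shRNA replicates 1 and 2 in log2 CPM (x axis) and in log2 of the deposited score (y axis), with the 80 genes in blue, the other genes in grey and the MERVL total as a red star. The 80 genes lie right of 0 in CPM and below 0 in scores, and the y axis spans a far narrower range than the x axis.

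In the edgeR quasi-likelihood fit over all genes and copies, MERVL shRNA against random shRNA, the log2 fold changes of the 80 genes had a median of -1.997, were all below 0 and came nearest to 0 for Dlk1 (-0.98), with a median of 0.00 over all genes. Gm5662 had a log2 fold change of -2.05 ± 0.59 (SE), Gm8994 -2.16 ± 0.57, Ccser1 -2.27 ± 0.67, Arhgef26 -1.66 ± 0.61, Mecom -2.12 ± 0.78 and Terc -1.86 ± 0.77. At an adjusted p under 0.05 edgeR called 0 of the 80, with 0.00636% of 15735 genes called, and at an unadjusted p under 0.05 it had 68 of the 80 lower, with 6.35% of genes lower. DESeq2 called 17 of the 80 lower (0.698% of genes), limma-voom 0, limma on the scores 46 (14.1% of genes), and edgeR with no filter on low counts 76 (1.81% of genes). The rule used this contrast, so nothing is read from these counts. Random shRNA replicate 1 carried much of the size: without it the median was -0.78 and edgeR called 24 of the 80 lower (7.32% of genes), and without random shRNA replicate 2 the median was -2.59 and it called all 80 lower (13.7% of genes). Without either MERVL shRNA library it called 0 of the 80 and 0 genes lower.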

How the data were processed

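Per the labels' protocols, libraries were made from total RNA with an mRNA-seq kit and random primers. The submitters' processing notes name Trim Galore, HISAT2 and build mm10; for versions, the counting program and use of strand, nothing is given in the sources used here. The authors deposited estimated counts for 43496 Ensembl genes and 2277 MERVL copies, and a table of normalized scores of unstated making. Groups and replicate numbers came from sample titles, and all columns were mapped.

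CPM was the estimated count over the column total, times 1000000. Genes were named and placed with GENCODE M21, and promoter windows are RefSeq's. Transcripts were compared with blastn 2.17.0. Rounded estimated counts of genes and copies were tested with edgeR 4.0.16 (TMM, filterByExpr, 2-sided, Benjamini-Hochberg, no replicate term), with DESeq2 1.42.0, limma-voom and limma 3.58.1 on log2(score + 1) as alternatives, beside other scalings, filters and left-out libraries. The edgeR script was tested on simulated data. A check for duplicate files of 1 library gave chi-squares per degree of freedom of 5.94 (MERVL shRNA) and 32.1 (random shRNA), where copies of 1 library would lie near 1. Genes named were those with a symbol that is not a placeholder, members of lists, the 10 closest to MERVL, neighbours within 100 kb, family members and the 3 genes on each side of each limit, with families and role groups set after the values were seen; others are said to be chosen later or stand beside a gene they overlap. Of the named genes, 1 is not reported here by itself. Members and lists were chosen with earlier results of these data known.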

Additional observations from a re-analysis of the deposited data

How the results depend on the processing

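The number of genes found depends on the rule. It was 80 as reported, 67 with TMM or DESeq2 scaling, 0 with the deposited scores in place of CPM, 34 with a minimum of 10 CPM, 119 with 1 CPM, 129 with gaps of 1.5-fold and 1.2-fold, 15 with 3-fold and 2-fold, and 1204 by the order of libraries alone; with each library's conditions dropped in turn it ran from 164 (without MERVL shRNA replicate 2) to 3033 (without random shRNA replicate 1). Genes called by edgeR over the whole table numbered 1, against 737 with no filter, 168 with DESeq2, 0 with limma-voom (1730 at an unadjusted p under 0.05), 4739 with limma on scores, 362 with the replicate block, and 2 to 4800 with 1 library left out, of which 2335 without random shRNA replicate 1 and 4800 without random shRNA replicate 2; the cause was not tested. With the replicate block 62 of the 80 were called lower, as were 1.6% of all genes. The rule put replicate 1 above replicate 2 in both groups and used this contrast, so nothing is read from that count. Same-numbered libraries had deviations that correlated at 0.25, and with 2 pairs this does not show that the numbers pair them. The median log2 fold change of the 80 was -1.997 and ran from -2.59 to -0.78 with 1 library left out, where a library left alone in its group takes its spread from the other group, and from -2.05 to -1.61 under the other settings. For 60 of the genes, over 779 refits, no log2 fold change turned positive, and 50 moved by more than the spread between replicates, 46 of them without random shRNA replicate 1. Alternatives on the distance to a MERVL copy were not run, since copy names carry no coordinates. With 2 libraries a group and 28 genes under 10 counts in MERVL shRNA replicate 2, depth limits the MERVL shRNA gap of low genes.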
